A study of Mus musculus with 10 samples.

Results

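H3K4me1 and H3K27ac regions of resting mouse cortical neurons were set against each other, to describe where the 2 histone marks lay together and where each lay without the other. All regions on chromosomes 1 to 19 of the 2 deposited region lists for untreated neurons were taken. They were 189576 H3K4me1 regions and 64770 H3K27ac regions, 254346 of the 651012 regions in the 8 lists of the series. Each region was put in a class by whether it shared at least 1 bp with a region of the other mark. The neurons were primary cortical neurons of C57BL/6J mice at day 6 in vitro, kept overnight in 3% serum and left untreated. Chromatin immunoprecipitation with sequencing (ChIP-seq) was also done on such cultures after 50 mM KCl for 45 min, which depolarizes neurons, and with antibodies to Gtf3c1, the largest subunit of the general transcription factor TFIIIC, and to Rpc155, the large catalytic subunit of RNA polymerase III. Total input chromatin served as control. The series design gives 3 biological replicates per condition, but each antibody and condition has 1 region list, so the comparisons have no replicate check and carry no test. Intervals are exact binomial (Clopper-Pearson) or order-statistic 95% intervals, and they cover counting error alone. The lists do not give the read depth behind them.

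H3K4me1 is histone H3 with a single methyl group on lysine 4. It is placed mainly by the MLL3 and MLL4 methyltransferases and marks enhancers and the flanks of active promoters. H3K27ac is acetylation of lysine 27 of the same histone by CBP and p300, and it marks enhancers and promoters in use. In neurons, enhancers that carry H3K4me1 without acetylation are often called primed, and promoters of active genes usually carry trimethylated lysine 4 at their centre with H3K4me1 at the edges.

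Promoters are shown first, because their base composition differed between the mark states of gene starts. The letters are the 250 bases before a start, from RefSeq on GRCm38.p6, printed 5′ to 3′ on the gene's strand, with each CpG pair in capitals. Tars, the threonyl-tRNA synthetase gene, had both marks within 1 kb of its start, in an H3K4me1 region and an H3K27ac region that did not touch. Its upstream bases (chr15:11399659-11399908, minus strand) were the median of 157 listed genes with both marks when these were ranked by CpG content, and they hold 14 CpG pairs. Eomes, a transcription factor of cortical intermediate progenitors, was the median of 68 listed genes with H3K4me1 alone (chr9:118477939-118478188, plus strand), with 8 CpG pairs. Slco1a4, an organic anion transporter of brain endothelium, was the lowest of those 68 (chr6:141856221-141856470, minus strand), and its printed bases hold 0 CpG pairs. Pou3f3, a POU transcription factor of cortical neurons, was the median of 7 listed genes with H3K27ac alone (chr1:42695518-42695767, plus strand), with 15 CpG pairs. Ubb, a polyubiquitin gene, was the highest of those 7 (chr11:62550921-62551170, plus strand), with 30.
Tars: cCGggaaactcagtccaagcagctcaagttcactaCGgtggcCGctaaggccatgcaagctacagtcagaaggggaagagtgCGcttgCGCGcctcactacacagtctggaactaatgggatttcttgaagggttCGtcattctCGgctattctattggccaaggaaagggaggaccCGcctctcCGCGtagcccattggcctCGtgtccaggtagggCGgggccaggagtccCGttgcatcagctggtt
Eomes: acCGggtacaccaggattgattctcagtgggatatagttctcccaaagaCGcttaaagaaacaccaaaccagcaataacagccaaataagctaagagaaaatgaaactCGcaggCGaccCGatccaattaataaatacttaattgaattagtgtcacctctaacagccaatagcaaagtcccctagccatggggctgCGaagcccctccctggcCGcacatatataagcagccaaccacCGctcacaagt
Slco1a4: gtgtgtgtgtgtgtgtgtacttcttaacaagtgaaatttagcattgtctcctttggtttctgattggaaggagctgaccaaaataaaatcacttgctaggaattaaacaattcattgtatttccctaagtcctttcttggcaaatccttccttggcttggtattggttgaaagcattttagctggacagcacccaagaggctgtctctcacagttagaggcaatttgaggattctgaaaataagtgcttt
Pou3f3: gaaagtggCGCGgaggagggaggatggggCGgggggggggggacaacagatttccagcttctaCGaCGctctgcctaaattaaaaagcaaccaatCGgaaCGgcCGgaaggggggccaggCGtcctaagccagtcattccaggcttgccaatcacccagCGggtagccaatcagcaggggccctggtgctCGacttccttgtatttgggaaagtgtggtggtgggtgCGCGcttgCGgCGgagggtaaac
Ubb: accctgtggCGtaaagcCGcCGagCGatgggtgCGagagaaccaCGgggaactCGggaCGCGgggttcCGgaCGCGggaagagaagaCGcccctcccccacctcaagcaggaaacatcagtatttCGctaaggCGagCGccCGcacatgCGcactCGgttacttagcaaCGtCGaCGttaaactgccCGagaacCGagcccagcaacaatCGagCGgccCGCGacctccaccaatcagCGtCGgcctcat

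In the lists as deposited, H3K27ac lay for the most part within territory that also carried H3K4me1, whereas most H3K4me1 regions had no H3K27ac. Of the 64770 H3K27ac regions, 55658 (85.9%, interval 85.7 to 86.2) touched an H3K4me1 region and 9112 (14.1%) did not. Of the 189576 H3K4me1 regions, 55942 (29.5%, interval 29.3 to 29.7) touched H3K27ac and 133634 (70.5%) did not. By length, H3K4me1 covered 175.6 Mb and H3K27ac 70.5 Mb. The 49.2 Mb under both were 28.0% of the H3K4me1 bases and 69.9% of the H3K27ac bases. The asymmetry held on each of the 19 chromosomes, where the share of H3K27ac with H3K4me1 ran from 81.3% (chromosome 3) to 90.8% (chromosome 11) and the share of H3K4me1 with H3K27ac from 27.4% (chromosome 4) to 32.3% (chromosome 13).

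The shares depended on how strong and how wide a region was, and on list length. Regions of each list were put in 4 groups of equal number by −log10 q. In the weakest group of H3K4me1 regions 8.74% touched H3K27ac, and in the strongest 66.0%. The same shares for H3K27ac regions were 70.4% and 95.1%. When the H3K4me1 list was reduced to its strongest 64770 regions, so that the lists were of equal length, 66.2% of H3K27ac and 58.3% of H3K4me1 regions touched the other mark. Most H3K4me1 regions of that shorter list thus touched H3K27ac. At the edge of the overlap rule, 1048 H3K4me1 regions shared at most 50 bp with H3K27ac (median width 603 bp, median fold enrichment 4.39), and 937 missed it by at most 50 bp (607 bp, 4.36). For H3K27ac, 627 regions lay just inside (452 bp, 2.92) and 562 just outside (442.5 bp, 2.79). Fold enrichment and q are the peak caller's own values for each region as deposited by the authors, and folds of the 2 antibodies are not on a common scale.

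Regions with both marks were wider than regions with either mark alone. H3K4me1 regions that touched H3K27ac had a median width of 1276 bp (interval 1266 to 1286, quartiles 691 and 2082), against 465 bp (interval 462 to 467, quartiles 293 and 814) for H3K4me1 alone. H3K27ac regions that touched H3K4me1 had a median width of 742 bp (interval 735 to 749, quartiles 431 and 1450), against 414 bp (interval 408 to 418, quartiles 319 and 598) for H3K27ac alone. A wide region is more likely to touch any other region, so width and class are not independent measures. Median fold enrichment followed the same order, at 6.40 against 3.73 for H3K4me1 and 3.30 against 2.67 for H3K27ac. Widths of 2000 bp or more were reached by 26.9% of H3K4me1 regions with H3K27ac and by 2.49% of those alone. For H3K27ac these shares were 15.1% and 0.966%.

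**Figure D1:**
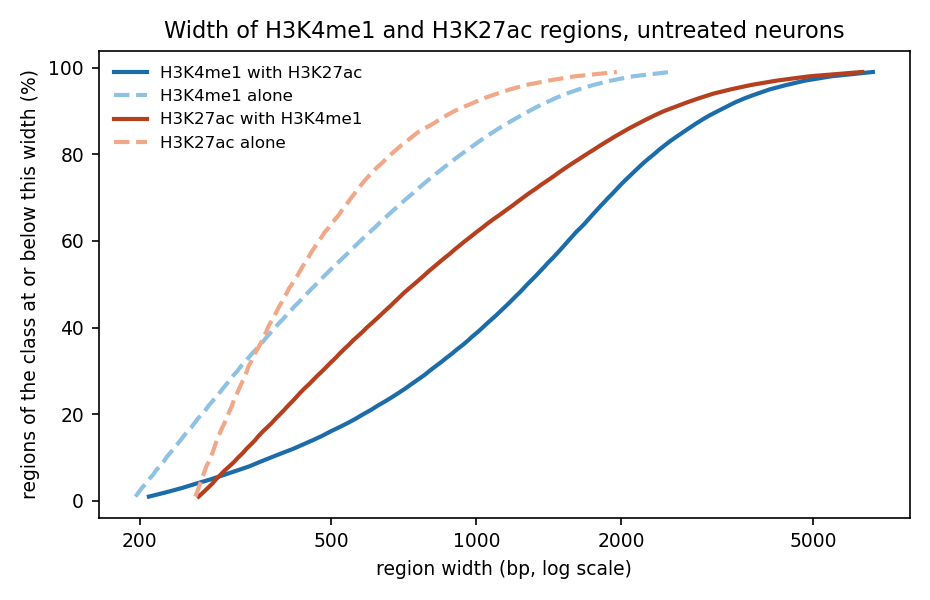
Cumulative share of regions (%) against region width (bp, log axis) in 4 classes, H3K4me1 and H3K27ac regions with and without the other mark. For each mark the curve for regions with the other mark lies to the right of that for regions alone, with medians of 1276 against 465 bp for H3K4me1 and 742 against 414 bp for H3K27ac.

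The broadest regions of each mark nearly all touched the other. All 128 H3K27ac regions and all 119 H3K4me1 regions of 10000 bp or more touched the other mark, as did 1068 of 1069 H3K27ac and 1521 of 1562 H3K4me1 regions of 5000 bp or more. The widest H3K27ac region (chr13:83709554-83743684, 34131 bp, fold 15.6) lay 54474 bp from the nearest end of Mef2c, a transcription factor of excitatory neuron differentiation. The next widest, of 31890 bp (fold 13.5), lay 35053 bp from the nearest end of Rhbg, an ammonium transporter gene. Bcl11a, a zinc-finger factor of deep-layer neurons, had a region of 31018 bp (fold 13.1). Nfix, a nuclear factor I gene, had a H3K27ac region of 30872 bp (chr8:84760340-84791211, fold 13.1) and also the widest H3K4me1 region, of 25556 bp (chr8:84729394-84754949, fold 15.5). Those 2 regions of Nfix are neighbours and do not overlap, so each touched other regions of the opposite mark. Celf2, an RNA-binding splicing regulator, and Nfib, another nuclear factor I gene, had H3K27ac regions of 28177 and 27232 bp. Msra, a methionine sulfoxide reductase gene, held 2 such regions, of 27942 and 26395 bp.

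After Nfix, the widest H3K4me1 regions with H3K27ac lay in genes of varied function. Lrp8, a receptor for reelin, had a region of 23408 bp (fold 18.1). Map1b, a microtubule-associated protein of growing axons, had 22253 bp (fold 12.3). Nav2, a neuron navigator gene, had 21518 bp, and Bcar3, an adaptor of cell adhesion signalling, had 21468 bp. Npas4, an activity-induced transcription factor, had 20055 bp (chr19:4982713-5002767, fold 21.5) in these unstimulated cells. The other 4 of the 10 widest were in Add2, Galnt2, Mpped1 and Nck2, at 18242 to 19263 bp.

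H3K4me1 without H3K27ac formed no domain of such width. Its widest region, at the start of Nav1, a neuron navigator gene, was 7107 bp (fold 10.8), followed by Nova2, a neuronal splicing regulator, at 7015 bp (fold 9.95). Cacna1h, a T-type calcium channel gene, and Grin2b, an NMDA receptor subunit gene, held regions of 6579 and 6353 bp inside the gene. The strongest H3K4me1 region without H3K27ac lay in Fam222a (chr5:114573911-114579278, 5368 bp, fold 22.9), followed by Myo1h, an unconventional myosin (3028 bp, fold 18.5), Akap9, a kinase-anchoring protein (850 bp, fold 19.5), and Tesc, a calcium-binding protein (2053 bp, fold 19.2). Strong H3K4me1 therefore also occurred with no H3K27ac region touching it.

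Most of the strongest H3K27ac regions without H3K4me1 were compact, and they lay near gene starts. All 10 of the strongest by −log10 q had their summit within 1 kb of a gene start, or of either end of a gene with no listed start. The first (chr7:73550994-73558454, 7461 bp, fold 15.5) was also the widest of its class. It lay 15769 bp from the nearest end of Chd2, a chromatin remodeler. The start or end within 1 kb of its summit belongs to a gene that is not protein-coding. The others were 326 to 1934 bp wide. Among them were Lrp6, a Wnt co-receptor (1719 bp, fold 14.5), Nbr1, an autophagy receptor (1503 bp, fold 13.7), Ino80, a chromatin remodeler (1853 bp, fold 13.2), Rab6a, a Golgi GTPase (1863 bp, fold 13.0), Tob1, an antiproliferative factor (1934 bp, fold 12.8), and Rtn4, which encodes the axon growth inhibitor Nogo (1685 bp, fold 12.6).

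By location, H3K4me1 regions with H3K27ac lay at gene starts more often than H3K4me1 alone. Near means that the summit was within 1 kb of a listed start of any annotated gene, or of either end of a gene whose start is not listed. Of H3K4me1 regions with H3K27ac, 19.4% (interval 19.03 to 19.69) were near a start, 53.2% were inside genes and 27.4% were outside genes. Of H3K4me1 alone, 7.41% (interval 7.27 to 7.55) were near a start, 60.3% inside genes and 32.2% outside. Seen from the location, 52.2% of H3K4me1 regions near starts touched H3K27ac, against 26.96% inside genes and 26.26% outside. The difference between near and far was smaller for H3K27ac, of which 90.1%, 87.2% and 81.1% touched H3K4me1.

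H3K27ac without H3K4me1 was a mixture. Over all its 9112 regions, 14.3% (interval 13.6 to 15.1) were near a start, 45.1% inside genes and 40.6% outside, against 21.4%, 50.1% and 28.5% of H3K27ac with H3K4me1. Its summits lay a median of 81888 bp from the nearest protein-coding start, against 37689 bp for H3K27ac with H3K4me1, 42609 bp for H3K4me1 alone and 29658 bp for H3K4me1 with H3K27ac. Strength split the class. In the weakest of the 4 groups of H3K27ac regions by −log10 q, 3.57% of those without H3K4me1 were near a start, and in the strongest group 91.8% (724 of 789) were. In that strongest group, 52.0% of H3K27ac regions with H3K4me1 were near a start. The order of the 2 classes turned with the setting, since H3K27ac alone lay near starts less often over all regions but more often among regions with q of 1e-05 or lower (47.7% against 31.6%) and when 50% of the shorter region had to be shared (29.3% against 17.7%).

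**Figure D2:**
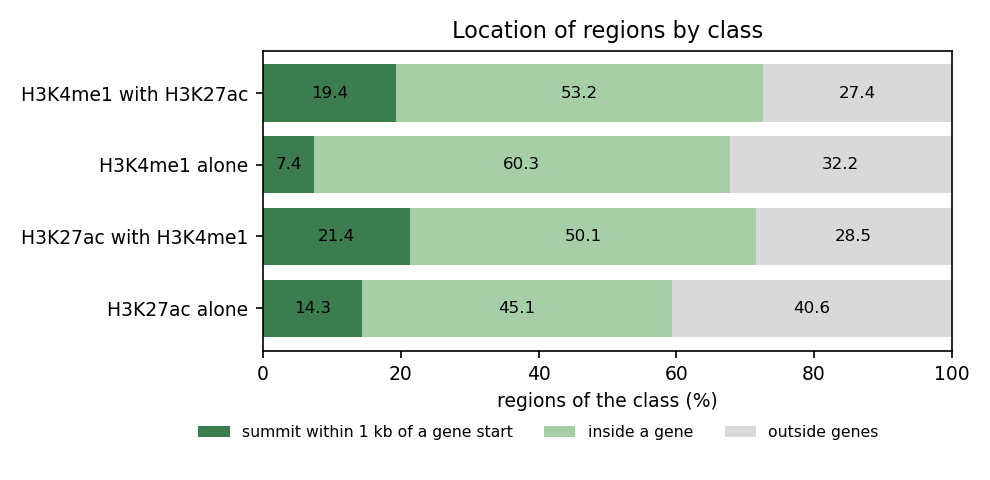
Share of regions (%) whose summit lay near a gene start, inside a gene or outside genes, for the 4 classes. The share near a start is 19.4% for H3K4me1 with H3K27ac and 7.41% for H3K4me1 alone, and 21.4% and 14.3% for the H3K27ac classes.

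Away from gene starts most H3K27ac summits in regions that touched H3K4me1 lay inside it, and at gene starts fewer did. Of H3K27ac regions that touched H3K4me1, the summit lay under an H3K4me1 region in 90.6% (interval 90.3 to 91.0) inside genes and 89.0% (interval 88.6 to 89.5) outside genes, but in 45.1% (interval 44.2 to 46.0) near starts. Over all places, 47.1% of these regions lay wholly inside H3K4me1, and 14.8% touched 2 or more H3K4me1 regions, up to 14. Of all H3K27ac regions, 69.1% had the summit inside H3K4me1, and 54.9% did with lists of equal length. H3K27ac regions without H3K4me1 were seldom far from it. Their median gap to the nearest H3K4me1 region was 659 bp, and 209 bp near starts, where 87.0% had H3K4me1 within 1000 bp. H3K4me1 alone had a median gap of 10790 bp to H3K27ac, and 13.0% lay within 1000 bp of it.

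In the average around 20084 listed starts of protein-coding genes, the marks peaked at different places. H3K27ac covered the most starts 200 bp downstream (48.4%), with 37.8% at 300 bp upstream. H3K4me1 covered 28.3% of starts at the start base and was highest at the flanks, with 36.8% at 500 bp upstream and 41.1% at 1200 bp downstream. Between the flanks it dipped to 23.7% at 300 bp downstream, near the H3K27ac peak. Both marks on the same base reached 20.1% at 400 bp upstream and 15.0% at 700 bp downstream, with 12.9% at the start. Among 10434 starts with both marks within 1 kb, the start base itself was under H3K27ac alone in 47.7%, under both in 24.8%, under H3K4me1 alone in 10.6% and under neither in 17.0%. So most starts with both marks in the window did not have both over the start base.

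**Figure D3:**
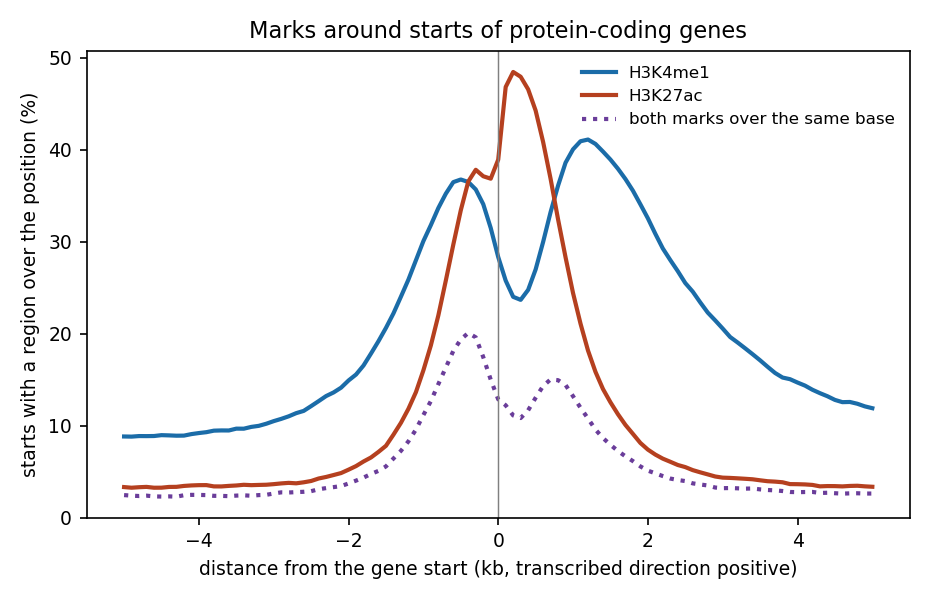
Share of 20084 protein-coding gene starts (%) under H3K4me1, H3K27ac or both against distance from the start (kb, negative upstream). H3K27ac peaks at 48.4% 200 bp downstream, while H3K4me1 has shoulders of 36.8% 500 bp upstream and 41.1% 1200 bp downstream with a dip to 23.7% between them, 300 bp downstream.

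Each protein-coding gene was then given a state from the regions that touched the 1 kb either side of any of its starts (or of either end, for genes with no listed start). Of 20661 genes, 10795 (52.2%) had both marks, 3110 (15.1%) H3K4me1 alone, 336 (1.63%) H3K27ac alone and 6420 (31.1%) neither, so that 67.3% had H3K4me1 and 53.9% H3K27ac with or without the other. These shares are the background for each list below. A state describes the window, and a region in it can still touch the other mark farther out. In the state with both, the marks need not overlap, and they can lie at different starts or ends of the gene. Gene bodies were measured too. A median of 14.0% of the gene's length lay under H3K4me1 and 5.72% under H3K27ac where the start had both marks, 8.82% and 0% where it had H3K4me1 alone, 7.39% and 4.28% where it had H3K27ac alone, and 0% and 0% where it had neither. The count of genes with H3K27ac alone depended on the setting. It was 2372 with lists of equal length, 560 with q of 1e-05 or lower in both lists and 40 with a window of 5 kb, and with equal lists the genes with H3K4me1 alone were 1643.

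Markers of the labelled cell type carried both marks. Of 19 pan-neuronal markers, 17 had both, 1 had H3K4me1 alone and 1 had H3K27ac alone. Tubb3, neuronal beta-tubulin, had H3K27ac at fold 13.6 over 5168 bp and H3K4me1 at fold 8.54 over 1667 bp. Gap43, a growth cone protein, had H3K27ac at fold 14.5 and H3K4me1 at 5.61, and Stmn2, a microtubule regulator, had 12.3 and 5.86. Rbfox3, which encodes the neuronal nuclear antigen NeuN, had H3K4me1 alone in its start windows, at fold 20.5 in a region of 10893 bp that touched H3K27ac farther out, while 7.10% of the gene's length lay under H3K27ac. Celf4, a neuronal RNA-binding protein, had H3K27ac alone in its windows, at fold 14.3 in a region of 6452 bp that touched H3K4me1 farther out.

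Markers of the other cell types such cultures can hold were at most partly in that state. Both marks were found at 5 of 14 astrocyte, 1 of 13 oligodendrocyte, 1 of 14 endothelial and 0 of 14 microglial markers, against 52.2% of all protein-coding genes. The astrocyte markers with both were Aqp4, a water channel, Fgfr3, a growth factor receptor, Slc1a3, a glutamate transporter, Slc4a4, a bicarbonate transporter, and Sox9, a glial transcription factor. Their H3K27ac folds were 2.54 to 3.68, and the median over the pan-neuronal markers was 9.33. Neither mark was in the window of 5 others. Of these, Gfap, an intermediate filament gene, had 21.4% of its length under H3K4me1 and 9.84% under H3K27ac, Slc1a2, a glutamate transporter gene, had 19.8% and 10.7%, Aldh1l1 had 9.82% and 0.647%, and S100b and Gpr37l1 had 0% and 0%. Mbp, a myelin protein gene, was the oligodendrocyte marker with both (H3K27ac fold 3.81), and Cdh5, the endothelial cadherin, was the endothelial one (fold 2.52). Trem2, a microglial receptor, was listed with H3K27ac alone at fold 2.02, and 10 of the 14 microglial markers had neither mark. H3K4me1 alone was the state of 4 astrocyte, 8 oligodendrocyte, 7 endothelial and 3 microglial markers. With a 5 kb window both marks were at 4 oligodendrocyte, 2 endothelial and 2 microglial markers. The part of other cells in the lists was not tested.

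Several genes of excitatory cortical identity had strong, broad H3K27ac, at times with no H3K4me1 at the start. Of 28 such transcription factors and transporters, 24 had both marks, 3 had H3K27ac alone, 1 had neither, and the median H3K27ac fold was 9.40. That median was 6.35 over all protein-coding genes with H3K27ac in the window. It was 9.33 over the pan-neuronal markers, 8.89 over synaptic genes and 8.36 over housekeeping genes. Some members had weak, narrow regions, such as Emx2 (fold 2.92, 400 bp) and Foxp2 (fold 3.68, 548 bp), named for this after their values were seen. Neurod6, a basic helix-loop-helix factor of pyramidal neurons, had an H3K27ac region of 11271 bp (fold 12.3), with 100% of the gene under H3K27ac and 0% under H3K4me1. Pou3f3 had a region of 15143 bp (fold 12.4), with 98.2% and 0%. The wide H3K27ac regions of Neurod6 and Pou3f3 both touched H3K4me1 outside the gene. Zbtb18, a zinc-finger repressor of cortical development, lay under an H3K27ac region of 21947 bp (fold 14.1), with 2.75% of the gene under H3K4me1. Sox5, a factor of deep-layer neurons, had neither mark at a start, although 22.5% of the gene lay under H3K4me1 and 17.2% under H3K27ac. With lists of equal length 10 of the 28 had H3K27ac alone, and with a 5 kb window none had.

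Genes of inhibitory neurons were divided between both marks and H3K4me1 alone. Of 23, 13 had both marks, 9 H3K4me1 alone, 0 H3K27ac alone and 1 neither, with a median H3K27ac fold of 3.68. The share with both, 56.5% (interval 34.5 to 76.8), was near the 52.2% of all protein-coding genes. The share with H3K4me1 alone was 39.1% (interval 19.7 to 61.5), against 15.1%. Gad2, an enzyme of GABA synthesis, had H3K27ac at fold 4.32 and H3K4me1 at 8.17. Slc32a1, the vesicular GABA transporter, had 4.06 and 7.82, and Dlx5, a homeobox factor of interneuron precursors, had 4.06 and 9.77. Dlx5 has no listed start, and the regions with those folds lay at opposite ends of the gene. Vip, a neuropeptide gene, had neither mark. In bulk chromatin fewer cells with a mark and less mark per cell cannot be told apart. The difference between the excitatory and inhibitory lists was not tested.

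Progenitor genes were divided. Of 14, 8 had both marks and 6 had H3K4me1 alone, and the median H3K27ac fold was 3.49. The share with both, 57.1% (interval 28.9 to 82.3), was near the 52.2% of all protein-coding genes. The share with H3K4me1 alone was 42.9% (interval 17.7 to 71.1), against 15.1%. Neurog2, a proneural factor, had an H3K27ac fold of 3.56, Hes1, a Notch target, had 4.44, and Vim, an intermediate filament gene, had 3.68. Eomes, whose upstream bases are printed above, had H3K4me1 at fold 6.40 and no H3K27ac.

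Synaptic and channel genes were mostly in the state with both marks. Of 36 synaptic genes, 34 had both, with high H3K27ac folds at Grin2b (13.8), Gria2, an AMPA receptor subunit (13.2), and Dlg4, the scaffold PSD-95 (12.1). Cacna1a, the P/Q-type calcium channel, had H3K4me1 alone at fold 7.82. Pclo, an active zone scaffold, had H3K27ac alone at fold 11.8. Of 30 voltage-gated and related channel genes, 27 had both. The exceptions were the potassium channel Kcnt1 and the sodium channel Scn1a with H3K4me1 alone (folds 9.60 and 6.04), and the sodium channel Scn3a with H3K27ac alone (fold 8.51). Scn2a, the sodium channel with the highest H3K27ac fold of the list, had 11.7.

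Immediate-early genes, which neurons induce within minutes of activity, carried both marks before any stimulation. Of 36, 35 had both (97.2%, interval 85.5 to 99.9, against 52.2% of all protein-coding genes). A median of 57.3% of the gene's length lay under H3K4me1 and 24.3% under H3K27ac, against 7.58% and 1.71% over all genes. These genes are short, with a median length of 5318 bp against 17491 bp over all genes. Ribosomal protein genes, with a median length of 3183 bp, had 54.8% and 39.3%. The part of gene length in the coverage was not tested. Npas4 had H3K4me1 at fold 21.5 and H3K27ac at 14.1, with 97.7% and 90.1% of the gene covered. Crem, a cAMP-responsive repressor, and Nr4a3, an orphan nuclear receptor, each had H3K27ac at fold 12.3, and Dusp6, a phosphatase of ERK kinases, had 10.6. Egr2, a zinc-finger transcription factor, was the exception. Its H3K4me1 region of 1587 bp had fold 10.2, 55.0% of the gene lay under H3K4me1, and no H3K27ac touched the gene or its window.

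Genes of the later activity response were more varied in state than immediate-early genes. Of 20, 14 had both marks (70.0%, interval 45.7 to 88.1, against 52.2% of all protein-coding genes). H3K4me1 alone was the state of 5 (25.0%, interval 8.66 to 49.1, against 15.1%). Each interval holds the share over all protein-coding genes. Those 5 were Cort and Tac1, neuropeptide genes, Mmp9, a matrix metalloproteinase, Nptx2, a pentraxin secreted at synapses, and Ptgs2, a prostaglandin synthase, with H3K4me1 folds of 5.09 to 8.53. Mmp9 and Nptx2 have no listed start, and the H3K4me1 region at each touched H3K27ac beyond the window. Of Nptx2, 3.22% of the gene lay under H3K27ac. With a 5 kb window 3 of the 20 had H3K4me1 alone. Plk2, a polo-like kinase, had H3K27ac at fold 11.9, Rheb, a GTPase upstream of mTOR, had 9.14, and Bdnf, a neurotrophin, had 8.76. Tiparp, an ADP-ribosyltransferase, had H3K27ac alone at fold 7.87.

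Genes needed in every cell nearly all had both marks. All 20 aminoacyl-tRNA synthetase genes did (interval 83.2 to 100%), with the highest H3K27ac fold at Gars (11.0), as did 25 of 28 housekeeping genes. Cltc, clathrin heavy chain, had H3K27ac at fold 16.0 and H3K4me1 at 5.86, and Actb, beta-actin, had 13.6 and 14.7. Ubb had H3K27ac alone in its window, at fold 12.7 in a region of 2552 bp that touched H3K4me1 farther out, Psmb2, a proteasome subunit, had H3K27ac alone at 4.65, and Ywhaz, a 14-3-3 protein with no listed start, had neither at its ends while 56.7% of the gene lay under H3K4me1. Of 77 ribosomal protein genes, 71 had both marks. The 4 with neither were Rpl10l, Rpl32l, Rpl39l and Rpl3l, all copies or paralogs whose symbols end in l for like. Rpl17, with no listed start, had H3K4me1 alone in its windows (fold 10.7), in a region that touched H3K27ac farther out, and Rpl5 had H3K27ac alone.

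Developmental regulators of other regions and lineages had H3K4me1 without H3K27ac. Of 39 Hox genes, which pattern the body axis behind the forebrain, 26 (66.7%, interval 49.8 to 80.9) had H3K4me1 alone, 13 had neither and 0 had H3K27ac, against 15.1%, 31.1% and 53.9% of all protein-coding genes. No base of any Hox gene lay under H3K27ac. The H3K4me1 folds ran from 2.02 at Hoxa11 to 9.42 at Hoxc8, 2 genes named for being the extremes after their values were seen, and neighbouring Hox genes can share a region. Of 34 master regulators of other lineages, 27 (79.4%, interval 62.1 to 91.3) had H3K4me1 alone and 6 neither. The exception was Foxa3, a liver factor, with both marks in the window and 0% of the gene under either. With lists of equal length the counts with H3K4me1 alone fell to 11 of 39 and 15 of 34, and with a 5 kb window 1 Hox gene and 3 of the 34 regulators had both marks.

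Genes for products of other tissues were mostly without either mark. Of 35 such genes, 25 had neither, 5 had H3K4me1 alone and 5 had both. Those with both were Cd4, a T cell co-receptor (H3K27ac fold 11.4), Krt1, a keratin (5.21), Myh7, a cardiac myosin (4.44), Dazl, a germ cell RNA-binding protein (4.25), and Sftpc, a lung surfactant protein (3.94). With a 5 kb window 16 had neither, 12 had H3K4me1 alone and 7 had both. A window can reach a region of a neighbouring gene, which was not tested. Neither mark was found at 1074 of 1104 olfactory receptor genes (97.3%) and 349 of 352 vomeronasal receptor genes (99.1%), against 31.1% of all protein-coding genes.

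**Figure D4:**
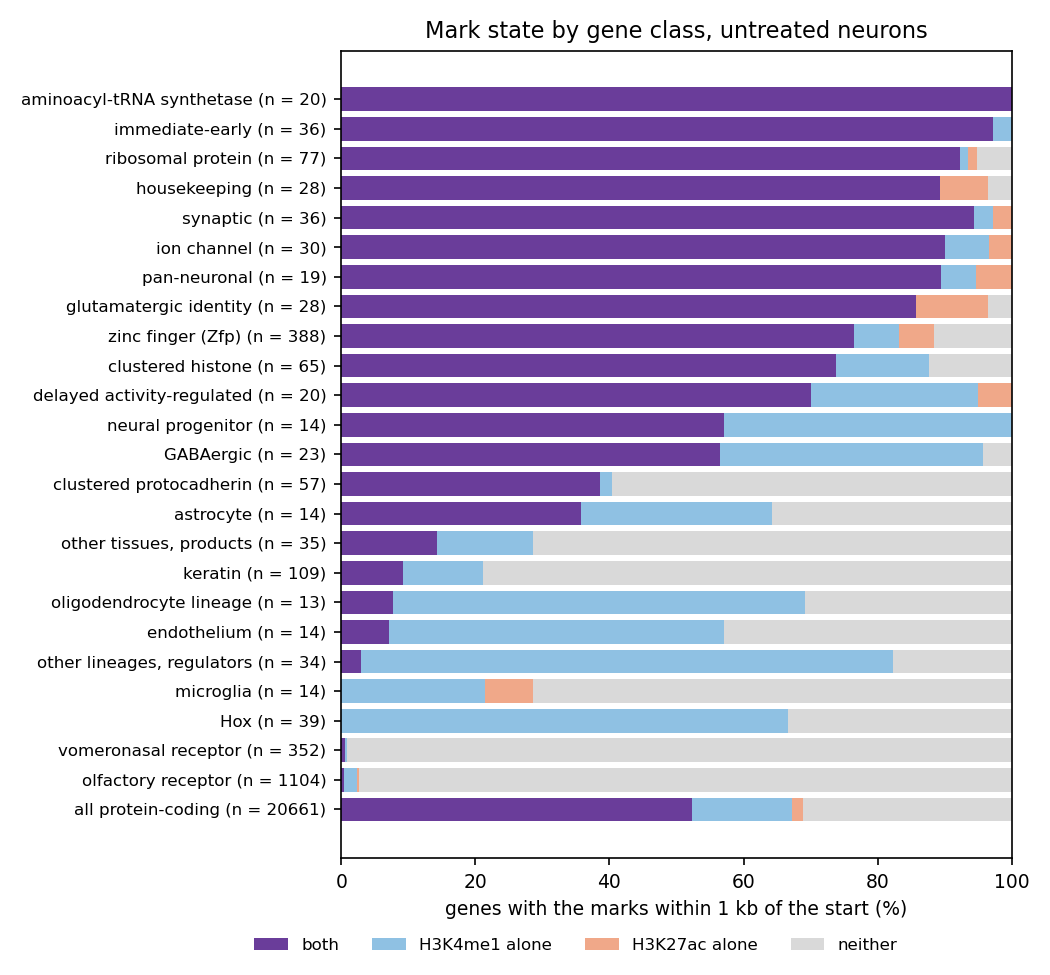
Share of the genes of each list (%) in each of 4 mark states of the window of 1 kb either side of the start, beside all 20661 protein-coding genes. Lists of neuronal, activity and general genes are mostly in the state with both marks, Hox genes (26 of 39) and regulators of other lineages (27 of 34) in the state with H3K4me1 alone, and receptor genes of the nose in the state with neither.

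Promoters with H3K27ac were CpG-rich, and those with H3K4me1 alone were intermediate. The measure was the count of CpG pairs over that given by the C and G content (observed over expected), in the 300 bases from 250 before to 50 after each start. The median was 0.795 (interval 0.789 to 0.799) at 10434 starts with both marks, 0.794 (interval 0.768 to 0.823) at 361 with H3K27ac alone, 0.506 (interval 0.487 to 0.523) at 3015 with H3K4me1 alone and 0.174 (interval 0.169 to 0.179) at 6274 with neither. A ratio of 0.6 or more was found at 77.7%, 80.9%, 39.1% and 3.98% of them, and at 48.9% of all starts. Read the other way, both marks were present at 6.96% of starts with a ratio under 0.2 and at 87.5% of those over 0.8. H3K4me1 alone was most frequent between 0.4 and 0.6, at 26.2%. The printed promoters span this range, from Slco1a4 with a ratio of 0.0817 through Eomes (0.607), Pou3f3 (0.699) and Tars (0.770) to Ubb (1.14).

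**Figure D5:**
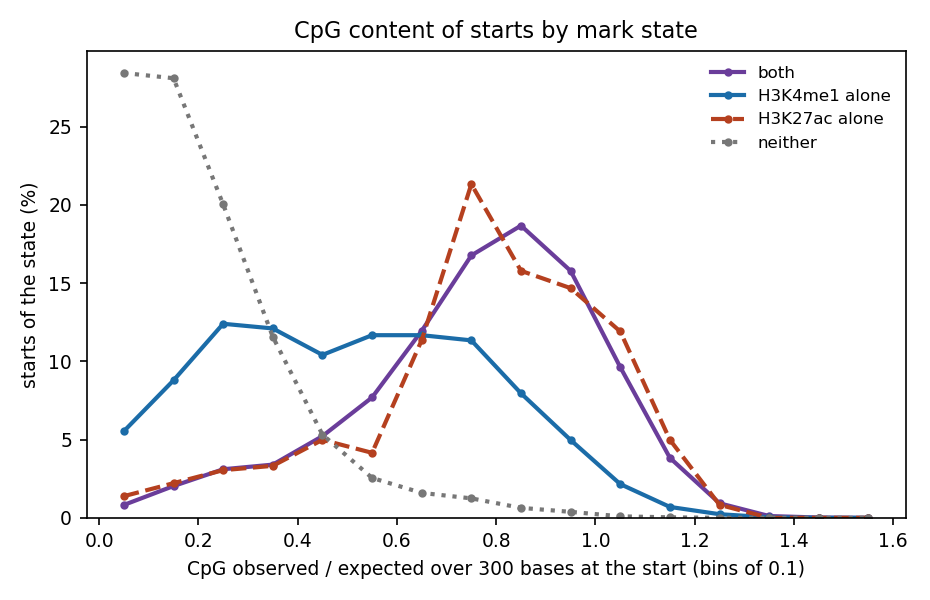
Distribution of the CpG observed over expected ratio in 300 bases around starts in each mark state, as the share of starts (%) per bin of the ratio. Starts with both marks or H3K27ac alone centre near 0.79, those with neither near 0.174, and those with H3K4me1 alone spread between them with a median of 0.506.

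Short motifs were counted in the same 300 bases on both strands, as descriptions of letters and not as sites. TATAAA was in 6.25% of promoters with both marks, 10.2% with H3K4me1 alone, 5.26% with H3K27ac alone and 25.1% with neither, against 12.7% of all. GGGCGG, the GC box, was in 66.9%, 49.6%, 67.9% and 11.5%, against 47.0%. TGACGTCA, the cAMP response element, was in 3.54%, 1.59%, 3.60% and 0.510%, against 2.30%. TGACTCA or TGAGTCA, the AP-1 element, went the other way, in 2.97%, 5.17%, 2.22% and 7.48%, against 4.70%. CCAAT was at 36.0 to 40.1% in the 4 states. GGGCGG and TGACGTCA each hold a CpG pair, and no word of these contains another.

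Gtf3c1 and Rpc155 regions, which did not enter the classes, lay at regions with both marks more than at H3K4me1 alone. Gtf3c1 touched 48.9% (interval 48.5 to 49.4) of H3K4me1 regions with H3K27ac and 11.5% (interval 11.3 to 11.7) of those alone. As regions with both marks are wider, Gtf3c1 summits were also counted per length, and there were 328 and 146 per Mb. Rpc155 touched 15.0% and 1.29%, with 82.0 and 14.4 summits per Mb. Both H3K27ac classes differed by location. Near starts 59.5% of H3K27ac alone touched Gtf3c1 and 25.4% Rpc155, and outside genes 2.03% and 0.297%. For H3K27ac with H3K4me1 these shares were 71.3% and 35.2% near starts and 34.5% and 12.7% outside genes.

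The lists from KCl-treated neurons showed which classes were listed again in a further set of libraries. H3K27ac in the KCl list touched 68.1% of the H3K27ac regions with H3K4me1 and 28.4% of those without. Near starts it touched 86.5% of H3K27ac alone, against 18.9% inside genes and 18.3% outside. Of H3K27ac alone, 24.8% touched H3K4me1 in the KCl list. Of H3K4me1 alone, 75.8% touched H3K4me1 in the KCl list and 10.1% touched H3K27ac there, a share that was 29.6% near starts, 9.36% inside genes and 7.09% outside. Treatment and library cannot be told apart here, with 1 list per condition. In the KCl lists themselves, 89.0% of H3K27ac regions touched H3K4me1 and 28.5% of H3K4me1 regions touched H3K27ac, with median widths of 1372 and 468 bp for H3K4me1 with and without H3K27ac and 807 and 379 bp for H3K27ac with and without H3K4me1.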

How the data were processed

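ChIP-seq region lists were used as deposited. Per the submitters' processing notes, Bowtie2 and MACS2 were used with build GRCm38 (mm10); neither versions nor any pooling of the 3 replicates named in the series design is given in the sources used here. In the narrowPeak layout the authors deposited a fold enrichment (a linear ratio), a −log10 p and −log10 q, and a score equal to the −log10 q multiplied and rounded down, for each region. The lowest −log10 q was 1.31 in both lists, a q of 0.05. No read depth, counts or input signal were used.

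Regions on chromosomes 1 to 19 were intersected with Python 3.11.15, numpy 2.4.6, pandas 2.3.3 and scipy 1.17.1, with figures by matplotlib 3.10.9. A shared length of at least 1 bp counted as overlap. Coordinates are printed 1-based on GRCm38/mm10. Gene positions came from a RefSeq table of GRCm38.p6, which has no strand, and starts from RefSeq promoters of the same assembly. Starts were listed for 16456 of 20661 protein-coding genes, and either end of the gene was used for the other 4205. All 423 symbols of the hand-made lists were found, 414 of them on chromosomes 1 to 19. Overlaps with their gaps, merging, points inside regions and windows were tested on simulated regions with known answers. Distances to gene starts and the naming of states were not.

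Named regions are the 10 strongest by −log10 q and the 10 widest of each class, named by the protein-coding gene that holds the summit or has the nearest end. Named genes are list members in a state held by 5 or fewer members and the 4 with the highest H3K27ac fold enrichment. For sequence, the genes at the median, lowest and highest CpG ratio of a state were taken. A gene outside this rule is stated as such, and some genes that the rule names are not reported here. The classes and gene lists were chosen with earlier results of these data known. Alternatives were a q of 1e-05, a 50% overlap, lists of equal length, merging within 1 kb, a 5 kb window and protein-coding genes alone.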

Additional observations from a re-analysis of the deposited data

Results flagged for a closer look

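Regions on the sex chromosomes lay outside the rule of chromosomes 1 to 19 and appear here as data the comparisons did not use. Chromosome X held 2639 H3K4me1 regions and 712 H3K27ac regions. On X, 15.5% of H3K4me1 regions touched H3K27ac (interval 14.2 to 17.0, against 29.5% on chromosomes 1 to 19) and 56.2% of H3K27ac regions touched H3K4me1 (interval 52.4 to 59.9, against 85.9%). Of 966 protein-coding genes on X, 199 had both marks (20.6%), 105 H3K4me1 alone (10.9%), 115 H3K27ac alone (11.9%, against 1.63% on chromosomes 1 to 19) and 547 neither (56.6%). Chromosome Y held 10 H3K4me1 regions and 4 H3K27ac regions. These differences between chromosomes were not tested, and with 1 list per mark they have no replicate check.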

How the results depend on the processing

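With q of 1e-05 or lower in both lists, 92.1% of H3K27ac touched H3K4me1 and 26.7% of H3K4me1 touched H3K27ac. The ratio of median widths, with the other mark over alone, was then 2.08 for H3K4me1 and 1.75 for H3K27ac (2.74 and 1.79 over all regions), and 70.4% of H3K27ac summits lay inside H3K4me1 (69.1% over all). The share near a start, with minus alone, was 16.0 points for H3K4me1 (11.9 over all) and -16.2 points for H3K27ac, which reversed it from 7.08. Genes with H3K27ac alone numbered 560, the CpG ratio of both minus H3K4me1 alone was 0.248 (0.289 over all), and Gtf3c1 and Rpc155 at H3K4me1 with minus without H3K27ac differed by 41.6 and 18.3 points (37.5 and 13.7 over all).

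When 50% of the shorter region had to be shared, the 2 shares were 76.6% and 24.5%, the H3K27ac width ratio 1.45, the differences near starts 7.92 points for H3K4me1 and -11.6 points for H3K27ac, again reversed, and those for Gtf3c1 and Rpc155 36.8 and 14.4 points. This setting does not apply to states of gene starts. With lists of equal length the shares were 66.2% and 58.3%, the H3K4me1 width ratio 1.56, the differences near starts 6.07 and 5.15 points, and summits inside H3K4me1 54.9%. Genes with H3K4me1 alone were 1643 and with H3K27ac alone 2372, the CpG difference 0.215, and Gtf3c1 and Rpc155 differed by 32.5 and 14.9 points. Merging regions under 1 kb apart gave 89.2% and 32.0%, width ratios of 3.46 and 3.18, differences near starts of 10.2 and 11.1 points and 76.6% of summits inside. With 5 kb in place of 1 kb the differences near starts were 15.3 and 9.44 points, genes with H3K27ac alone 40, the CpG difference 0.367, and that of H3K27ac alone minus both -0.272 (-0.000895 with 1 kb). Protein-coding genes alone gave differences near starts of 11.4 and 6.21 points, and their listed starts alone, a setting chosen after seeing the data, 9.56 and 5.30. The cause of both reversals was not tested.

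Of the 68 counts of hand-made lists by state, 25 moved by over 1.5 times with the 5 kb window, 26 with lists of equal length and 14 with q of 1e-05 or lower. Merging left all 68 identical. Listed starts alone moved 19, with fewer genes in the lists. No paired analysis was possible because each antibody has 1 list per condition and no result comes from a test. The lists carry no read depth, so a region that is not listed may be one that was not detectable.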

Other observations

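Other gene types and families were described in the same way, with 1 list per mark and no test. Of 12408 long non-coding RNA genes, 23.6% had both marks near a start or end, 23.7% H3K4me1 alone, 0.967% H3K27ac alone and 51.7% neither, where protein-coding genes had 52.2%, 15.1%, 1.63% and 31.1%. Of 391 tRNA genes, which RNA polymerase III transcribes, 162 (41.4%, interval 36.5 to 46.5) had both marks, 74 (18.9%) H3K4me1 alone and 24 (6.14%, interval 3.97 to 9.00) H3K27ac alone. Neighbouring tRNA genes can share a region, while the intervals count each gene as separate. Pseudogenes mostly had neither, at 87.3% of 8884. Of 1136 microRNA genes, 17.5% had both marks and 18.5% H3K4me1 alone.

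Among families, 297 of 388 zinc finger genes with Zfp symbols (76.5%) had both marks, against 52.2% of all protein-coding genes. H3K27ac alone was the state of 20 (5.15%, interval 3.18 to 7.85, against 1.63%). Of 65 replication-dependent histone genes, which lack polyadenylated transcripts and are expressed in dividing cells, 48 had both marks (73.8%, against 52.2%). H3K4me1 alone was the state of 9 (13.8%, against 15.1%). A median of 67.5% of the histone gene's length lay under H3K27ac and 16.9% under H3K4me1, against 1.71% and 7.58% over all protein-coding genes. The histone genes are short and lie in clusters, so neighbours can share a region. Of 57 clustered protocadherin genes, which give neurons distinct surface identities, 22 had both marks (38.6%, against 52.2%), 1 H3K4me1 alone and 34 neither (59.6%, against 31.1%). All came from windows at either end because no start was listed for them. Neighbours in a cluster can share an end and a region, so the 22 cannot be read as separate promoters with both marks. Of 109 keratin genes, 86 had neither mark (78.9%, against 31.1% of all protein-coding genes).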
